A study of Rattus norvegicus with 12 samples.

Results

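Skeletal muscle genes were followed across 12 arrays of rat mammary gland, array by array. The gene list held 44 symbols of the contractile apparatus and energy supply of skeletal muscle fibres, and a gene's value was the mean of the probe sets that the platform annotation gives to that gene alone. Of these 44 genes 43 were measured, by 74 probe sets, among 14217 genes in all, and 14 of the 43 had several probe sets. The symbol Mylpf, the fast regulatory myosin light chain, was skipped because the annotation does not carry it, although its current symbol Myl11 was measured. Within the 43 genes, 12 are typical of fast fibres, 7 of slow fibres, and 24 were placed in neither class.

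Female Sprague-Dawley rats ate casein or soy protein isolate from postnatal day 30, and every rat was ovariectomised on day 50, so the vehicle groups lacked ovaries too. A mini-osmotic pump then gave 17β-estradiol (E2) or vehicle for 14 days, and abdominal mammary glands were taken on day 64. The 4 groups were casein with vehicle, casein with E2, soy with vehicle and soy with E2, with 3 RNA pools and 3 Affymetrix arrays in each. How many rats each pool held is not given in the sources used here, so p-values rest on the differences among pools alone, and the number of arrays limits their precision. Casein plus E2 pools 2 and 3 had nearly the same values (SD of their difference 0.163 over all probe sets, against at least 0.301 in the other 65 pairs of arrays) and were averaged for every test, which left 11 samples and n = 2 in that group. All values are on a log2 scale after centring of each probe set, which means that 0 is a probe set's median over the arrays. The median of a gene averaged over several probe sets need not be 0. Levels of different genes cannot be compared. Whether a gene was above background on any array could not be read from centred values either.

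A skeletal muscle fibre shortens when myosin heads of the thick filament pull on the actin thin filament, after calcium released from the sarcoplasmic reticulum has moved troponin and tropomyosin aside. Fast and slow fibres build this machine from separate genes for nearly every part, fast fibres with the heavy chains Myh4, Myh1 and Myh2 and slow fibres with Myh7. The abdominal mammary gland itself is made of epithelium, adipocytes and stroma and lies under the skin beside the abdominal wall and its muscle.

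The upstream sequences of members that were high on the same arrays are shown for 4 genes, the leading fast heavy chain (Myh4), skeletal actin (Acta1), and the fast calcium store and calcium pump (Casq1 and Atp2a1). They are the 250 bases before the gene's start from RefSeq on the GRCr8 assembly, 5′ to 3′ on the gene's strand, and capitals mark the E-box CAGCTG, a motif that MyoD family factors bind. The 4 were taken from members that hold this motif. Myh4 lies on the plus strand at chr10:52421898-52422147, Acta1 on the minus strand at chr19:68784195-68784444, Casq1 on the minus strand at chr13:87212711-87212960, and Atp2a1 on the minus strand at chr1:190475411-190475660.
Myh4: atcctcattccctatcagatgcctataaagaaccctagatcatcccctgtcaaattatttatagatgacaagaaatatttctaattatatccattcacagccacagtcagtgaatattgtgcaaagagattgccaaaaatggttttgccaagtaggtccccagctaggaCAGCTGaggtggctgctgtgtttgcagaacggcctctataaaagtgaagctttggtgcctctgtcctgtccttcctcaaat
Acta1: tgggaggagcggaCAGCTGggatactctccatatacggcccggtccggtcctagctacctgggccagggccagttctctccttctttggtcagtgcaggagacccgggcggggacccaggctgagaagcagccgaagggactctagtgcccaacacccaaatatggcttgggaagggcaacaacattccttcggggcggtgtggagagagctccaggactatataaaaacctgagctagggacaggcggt
Casq1: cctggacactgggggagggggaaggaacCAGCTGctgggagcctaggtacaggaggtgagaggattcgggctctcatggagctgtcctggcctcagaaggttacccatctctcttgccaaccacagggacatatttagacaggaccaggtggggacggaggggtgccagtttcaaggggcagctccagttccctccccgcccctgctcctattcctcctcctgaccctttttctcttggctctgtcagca
Atp2a1: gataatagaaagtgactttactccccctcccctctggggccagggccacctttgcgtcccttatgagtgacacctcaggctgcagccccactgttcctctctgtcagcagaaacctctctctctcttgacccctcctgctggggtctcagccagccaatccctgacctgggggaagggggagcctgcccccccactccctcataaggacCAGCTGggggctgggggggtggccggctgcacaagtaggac

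In Myh4 the capitals begin 81 bases before the start, in Acta1 237, in Casq1 222 and in Atp2a1 41. Of the 38 members with an entry in the RefSeq promoter table, 20 had a window that ends at the start of the gene in the gene table. Windows that did not end there were left out, and all genes were filtered by the same rule. In these 20 members CAGCTG (its own reverse complement) was present in 9, or 45%, against 11.7% of all 19334 windows chosen in the same way. The other motifs were searched on both strands. CATTCC, the core that TEAD factors bind, was in 5 members (25%, against 12.2% of all windows). The MEF2 box was in 2 members (10% against 2.05%) and the CArG box bound by serum response factor in 2 (10% against 1.61%). TATAAA was in 8 members (40% against 15.2%), and a MEF2 box and TATAAA overlapped in 87 of all windows. Of the 8 fast genes with such a window 3 held CAGCTG, and of the 3 slow genes 0 did. Such a match describes the letters and does not show that a factor binds there.

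Muscle transcripts were unevenly spread over the pools. Casein pool 2 and soy pool 2 were the 2 highest arrays for 40 of the 43 muscle genes (93.0%), against 264 of all 14217 genes (1.86%). Casein pool 1 came next for 36 of the 43. In casein pool 2, 35 members lay above 1 and 8 above 4. For a gene with 1 probe set, a value above 1 is more than double its median over the arrays. Soy pool 2 had 32 members above 1 and 9 above 4, and casein pool 1 had 15 above 1 and 0 above 3. On the other arrays 4 members exceeded 1, namely Myh4, Tnnc2 and Myl1 in casein plus E2 pools 2 and 3, and Acta1 in pool 3 alone. In these bulk samples, more muscle cells and more muscle RNA per cell cannot be told apart.

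**Figure D1:**
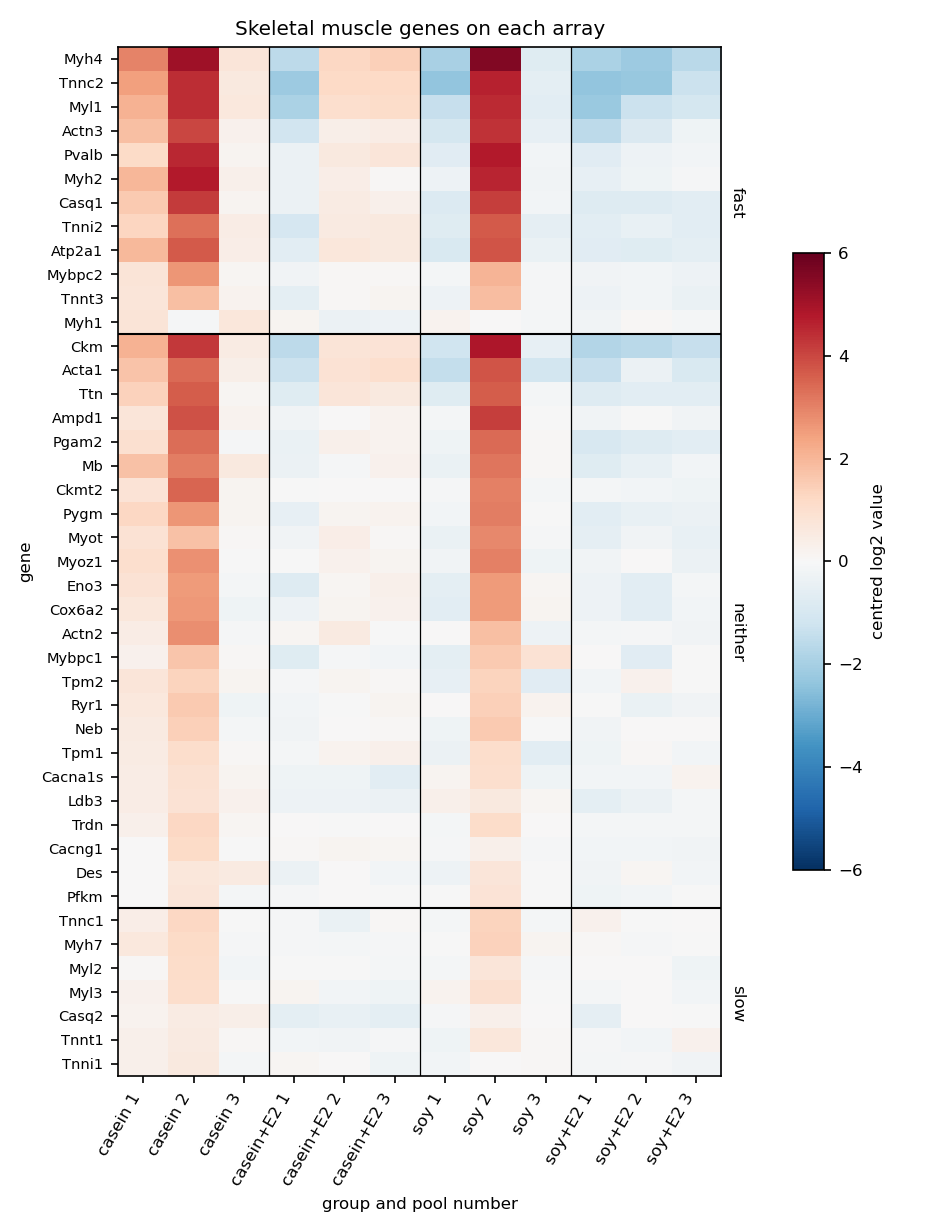
Heat map of the 43 muscle genes (rows, grouped as fast, neither and slow) on the 12 arrays (columns, by group and pool); colour is the centred log2 value, blue below 0 and red above. Casein pool 2 and soy pool 2 are the reddest arrays in most rows, with 8 and 9 of the 43 genes above 4. Casein pool 1 is paler, and slow genes stay pale throughout.

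The median over the 43 muscle genes was 0.74, 2.55 and 0.15 in casein pools 1, 2 and 3, and -0.31, 0.13 and 0.12 in the casein plus E2 pools in the same order. It was -0.27, 2.05 and -0.09 in the soy pools and -0.26, -0.18 and -0.19 in the soy plus E2 pools. Both vehicle groups therefore held 1 pool far above their other pools, the casein group a second pool at an intermediate value, and the soy plus E2 pools lay close together below 0.

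Among the myosins, the heavy chain of the fastest fibres had the widest range of all members, 7.72 log2 units. Myh4 read 2.97, 5.10 and 0.71 in the casein pools, -1.59, 1.24 and 1.43 in the casein plus E2 pools, -1.93, 5.54 and -0.71 in the soy pools and -1.90, -2.18 and -1.63 in the soy plus E2 pools. Casein pool 2 was 76.3-fold and soy pool 2 103.4-fold above the median of the other 10 arrays. The soy plus E2 pools were all low, but soy pool 1 lay among them, and the ranges of casein and casein plus E2 overlapped. Myl1, the fast essential light chain, followed with 2.10, 4.42 and 0.61 in the casein pools, -1.89, 1.03 and 1.08 with casein and E2, -1.38, 4.50 and -0.61 with soy and -2.21, -1.31 and -1.07 with soy and E2. Myh2, the heavy chain of fast oxidative fibres, read 2.01, 4.76 and 0.28 with casein, -0.33, 0.39 and 0.09 with casein and E2, -0.31, 4.59 and -0.19 with soy and -0.50, -0.24 and -0.09 with soy and E2. Its high pools were those of Myh4, but its remaining arrays stayed within a narrower band. Myh7, the slow heavy chain, read 0.62, 1.14 and -0.08 with casein, -0.05, -0.13 and -0.05 with casein and E2, -0.0014, 1.36 and 0.18 with soy and 0.06, -0.06 and -0.05 with soy and E2. The slow light chains Myl2 and Myl3, which the heart ventricle shares, were at 1.11 and 1.07 in casein pool 2 and at 0.73 and 0.95 in soy pool 2.

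Of the 10 thin filament genes 9 had casein pool 2 and soy pool 2 as their highest arrays, and Tnni1 was the exception. Tnnc2, the calcium sensor of fast troponin, read 2.45, 4.43 and 0.58 with casein, -2.19, 1.19 and 1.20 with casein and E2, -2.36, 4.60 and -0.58 with soy and -2.37, -2.30 and -1.29 with soy and E2. Soy pool 1 was about as low as the lowest soy plus E2 pool, so the low end was not confined to rats given E2. Tnni2, the fast inhibitory subunit, read 1.27, 3.31 and 0.43 with casein, -1.03, 0.55 and 0.59 with casein and E2, -0.74, 3.66 and -0.52 with soy and -0.63, -0.43 and -0.61 with soy and E2. Acta1, skeletal actin, read 1.69, 3.40 and 0.35 with casein, -1.29, 0.85 and 1.01 with casein and E2, -1.44, 3.76 and -1.08 with soy and -1.40, -0.35 and -0.89 with soy and E2. In both genes 1 soy pool was the highest array and another soy pool was the lowest or next to it. The slow counterparts moved little. Tnnc1, the slow and cardiac calcium sensor, read 0.40, 1.25 and -0.01 with casein, -0.08, -0.42 and 0.05 with casein and E2, -0.11, 1.35 and -0.10 with soy and 0.24, -0.05 and 0.01 with soy and E2. Tnni1, the slow inhibitory subunit, had the narrowest range of all members (0.84), with 0.29, 0.59 and -0.10 in the casein pools, 0.11, 0.04 and -0.26 with E2, -0.15, 0.04 and 0.07 in the soy pools and -0.10, -0.05 and -0.20 with soy and E2. Tnnt1, the slow tropomyosin-binding subunit, had the next narrowest (0.93), from -0.26 in soy pool 1 to 0.67 in soy pool 2.

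Z-disc and scaffold genes ranged from large to small differences. Actn3, the fast α-actinin, was at 4.01 in casein pool 2 and 4.33 in soy pool 2, and between -1.57 and 1.80 on the other arrays. The giant spring protein titin (Ttn) was at 3.63 in both. Desmin (Des), the intermediate filament that smooth muscle also makes, read 0.03, 0.70 and 0.54 with casein, -0.36, 0.01 and -0.18 with casein and E2, -0.31, 0.71 and -0.01 with soy and -0.22, 0.10 and -0.14 with soy and E2. Its casein pool 3 was nearly as high as the 2 pools rich in muscle transcripts.

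Calcium handling genes were again led by the fast forms. Pvalb, the calcium buffer of fast fibres, read 1.13, 4.54 and 0.15 with casein, -0.34, 0.59 and 0.74 with casein and E2, -0.69, 4.76 and -0.17 with soy and -0.66, -0.31 and -0.15 with soy and E2. Atp2a1, the calcium pump of the fast sarcoplasmic reticulum, read 1.93, 3.67 and 0.40 with casein, -0.63, 0.69 and 0.60 with casein and E2, -0.93, 3.75 and -0.40 with soy and -0.68, -0.72 and -0.57 with soy and E2. Compared with Pvalb, Atp2a1 gave casein pool 1 a value closer to the 2 highest. The release channel Ryr1 read 0.65, 1.57 and -0.24 with casein, -0.17, -0.01 and 0.15 with casein and E2, 0.01, 1.42 and 0.21 with soy and -0.01, -0.40 and -0.20 with soy and E2. Its voltage sensor Cacna1s was at 0.91 in casein pool 2 and 0.99 in soy pool 2.

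In the energy group, Ckm read 2.07, 4.23 and 0.49 with casein, -1.57, 0.79 and 0.84 with casein and E2, -1.18, 4.86 and -0.49 with soy and -1.75, -1.61 and -1.41 with soy and E2, a range of 6.61. Myoglobin (Mb), the oxygen store of red fibres, read 1.77, 3.06 and 0.56 with casein, -0.34, -0.06 and 0.24 with casein and E2, -0.41, 3.19 and 0.06 with soy and -0.71, -0.46 and -0.18 with soy and E2. All casein pools lay above all casein plus E2 pools for Mb, while Ckm overlapped there and separated the soy groups instead. Pfkm, the muscle phosphofructokinase that other tissues also use, was far flatter, with 0.02, 0.75 and -0.13 in the casein pools, -0.06, 0.01 and -0.02 with casein and E2, -0.02, 0.82 and -0.01 with soy and -0.25, -0.17 and -0.01 with soy and E2. AMP deaminase (Ampd1) and the glycogen phosphorylase of muscle (Pygm) were at 3.80 and 2.66 in casein pool 2 and at 4.13 and 3.08 in soy pool 2.

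Fast fibre genes differed between pools far more than slow fibre genes. The median of the 12 fast genes was 1.67, 4.10 and 0.34 in the casein pools, -0.61, 0.52 and 0.51 with casein and E2, -0.78, 4.24 and -0.29 with soy and -0.67, -0.58 and -0.48 with soy and E2. For the 7 slow genes it was 0.29, 1.07 and -0.02 with casein, -0.05, -0.15 and -0.13 with casein and E2, -0.11, 0.73 and 0.0014 with soy and -0.08, -0.05 and -0.05 with soy and E2. In casein pool 2 the fast median thus exceeded the slow one by 3.03 and in soy pool 2 by 3.51. With the most variable probe set of each gene in place of the mean these gaps were 3.03 and 3.30. Soy pool 2 was above casein pool 2 for 9 of the 12 fast genes and for 3 of the 7 slow genes.

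**Figure D2:**
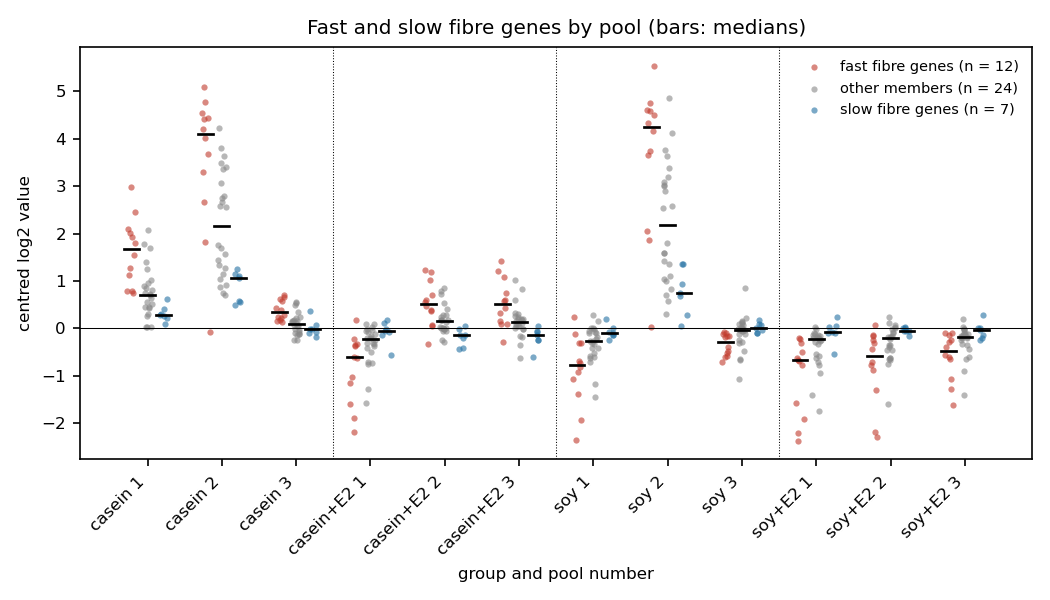
Centred log2 values (vertical axis) of the 12 fast, 24 other and 7 slow muscle genes on each array (horizontal axis); each point is 1 gene and each bar the median of its class. The fast medians reach 4.10 in casein pool 2 and 4.24 in soy pool 2, where the slow medians are 1.07 and 0.73.

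Pairs of genes that fill the same role in both fibre types gave a direct view of this. Against the median of the other 10 arrays, Tnnc2 was higher by 5.37 in casein pool 2 and its slow partner Tnnc1 by 1.27. The respective differences in soy pool 2 were 5.53 and 1.38. For the inhibitory subunits Tnni2 and Tnni1 they were 3.78 and 0.66 in casein pool 2, and 4.13 and 0.12 in soy pool 2. The calcium stores of the reticulum, Casq1 (fast) and Casq2 (slow and cardiac), differed by 4.46 and 0.54, and by 4.42 and 0.32. The heavy chains Myh4 and Myh7 differed by 6.25 and 1.19, and by 6.69 and 1.41, and the light chains Myl1 and Myl3 by 5.26 and 1.10, and by 5.34 and 0.97. The narrowest gap was between Tnnt3 and Tnnt1, at 1.95 and 0.63 in casein pool 2 and 1.99 and 0.75 in soy pool 2. Tnnt3 here is the mean of 2 unlike probe sets, 1371247_at with values of 3.39 and 3.62 in these pools and 1397499_at with 0.25 and 0.11. The fast gene had the larger difference in all 6 pairs and both pools. Of the fast heavy chains only Myh4 was placed in a pair. Myh2 differed by 4.91 and 4.73, but Myh1 by -0.07 and 0.05, less than Myh7 in both pools. Whether low signal near background narrowed the slow genes' differences was not tested, since no levels are given.

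**Figure D3:**
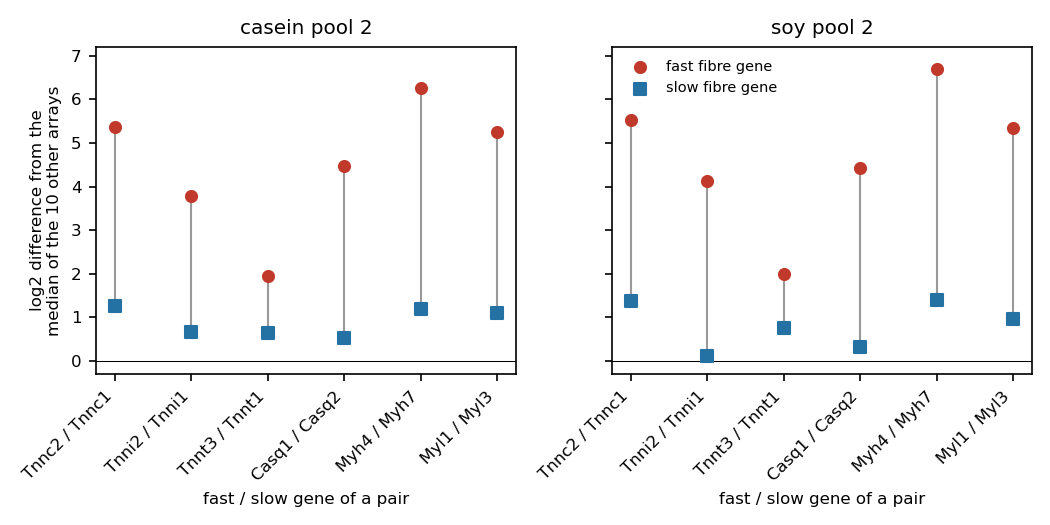
Difference of casein pool 2 (left) and soy pool 2 (right) from the median of the other 10 arrays, in log2 units (vertical axis), for 6 pairs of a fast gene (red circle) and its slow counterpart (blue square). Each red circle lies above its blue square, by the widest margin for Myh4 over Myh7.

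Some members did not follow the common order of pools. Myh1, the remaining fast heavy chain, read 0.79, -0.08 and 0.67 with casein, 0.18, -0.34 and -0.29 with casein and E2, 0.23, 0.04 and -0.12 with soy and -0.23, 0.07 and -0.10 with soy and E2. Its highest arrays were casein pools 1 and 3, and the pools richest in Myh4 and Myh2 ranked only 7 and 6 for it. Of its 5 probe sets 4 had this pattern, with 0.91 to 1.06 in casein pool 1, 0.63 to 0.92 in casein pool 3 and at most 0.11 in casein pool 2. The fifth, 1377114_at, was at -0.02 and 0.02 in those pools. Myh2, Myh1 and Myh4 are neighbouring coding genes with closely related sequences, and Myh1 is also an older name of Myh2 and Myo1a in the gene table. Its probe sets carry the identifier of Myh1 itself, and which transcript they detect was not tested.

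Casq2 and Ldb3 were the members that passed a test for E2 (given with the group comparisons). Casq2 read 0.22, 0.50 and 0.37 with casein, -0.57, -0.44 and -0.60 with casein and E2, -0.08, 0.28 and 0.0014 with soy and -0.53, 0.01 and -0.0014 with soy and E2. All casein pools lay above all casein plus E2 pools, and the soy groups overlapped. Ldb3, a Z-disc protein that binds α-actinin, read 0.42, 0.86 and 0.23 with casein, -0.31, -0.30 and -0.35 with casein and E2, 0.29, 0.57 and 0.14 with soy and -0.59, -0.34 and -0.10 with soy and E2. Every pool given E2 was below every vehicle pool in both diets. Its 6 probe sets did not agree. In 1371984_at, 1375303_at and 1375982_at every pool given E2 was below every vehicle pool, as in the mean. For 1372737_at, 1394544_at and 1397273_at the pools with and without E2 overlapped. In casein pool 2 and soy pool 2, 1371984_at read 1.28 and 0.76, while 1394544_at read 0.31 and -0.0032. Separation by E2 did not go together with high values in these pools. The overlapping 1372737_at and 1397273_at were highest there, 1372737_at with 1.16 in soy pool 2. The separated 1375303_at was highest in casein pool 2 but read 1.12 in soy pool 1 against 0.66 in soy pool 2. For the separated 1375982_at these were 0.83 and 0.60, and casein pool 1 also lay above casein pool 2.

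**Figure D4:**
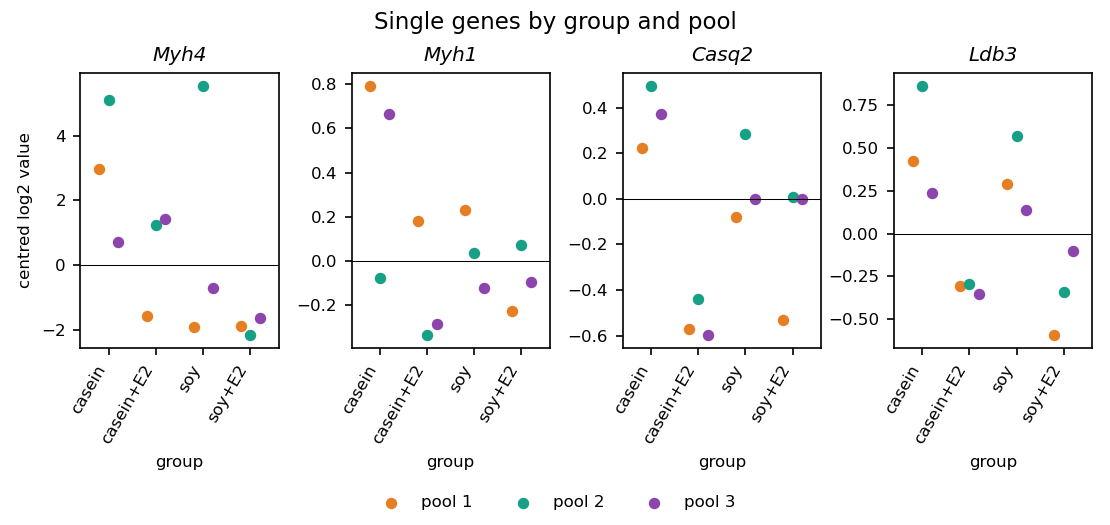
Centred log2 values (vertical axes, scaled to each gene) of 4 muscle genes by group (horizontal axes), with 1 point per pool coloured by pool number. Myh4 is highest in pool 2 of both vehicle groups, Myh1 in casein pools 1 and 3, and in Ldb3 the pools with E2 all lie below the vehicle pools.

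Probe sets of a gene also disagreed in the tropomyosins, which many tissues express in other splice forms. Tpm1 as a mean read 0.51, 1.05 and 0.06 with casein, -0.11, 0.23 and 0.32 with casein and E2, -0.34, 1.05 and -0.64 with soy and -0.26, 0.07 and -0.15 with soy and E2. Of its 7 probe sets, 1371241_x_at reached 4.66 in casein pool 2 and 4.51 in soy pool 2, whereas 1395794_at was at -1.11 and -0.64. Tpm2 read 0.74, 1.34 and 0.16 with casein, -0.08, 0.17 and 0.08 with casein and E2, -0.51, 1.36 and -0.66 with soy and -0.18, 0.24 and -0.04 with soy and E2. Its probe set 1392976_at was at 3.05 and 3.09 in the 2 high pools and 1372219_at at -0.37 and -0.38. The mean over probe sets therefore understates the difference seen by some of them. The same held for Tnnt3, where 1371247_at read 3.39 and 3.62 and 1397499_at 0.25 and 0.11, and for nebulin (Neb), where 1381575_at read 3.68 and 3.95 and 1377953_at 0.25 and 0.10.

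The comparisons of the study asked how E2 and a soy protein diet, alone or together, alter mammary gene expression after ovariectomy. In casein-fed rats, all 43 muscle genes had a fitted difference below 0 with E2, with a median of -1.08 where the median of all genes was 0.02. The median was -1.97 for fast and -0.46 for slow genes. Of the members Casq2 alone passed, and it fell by 0.91 ± 0.18 (SE; casein n = 3, casein plus E2 n = 2; limma adjusted p = 0.0380 over all genes). That is 1 of 43 members, or 2.33%, against 2.43% of all genes called in either direction and 0.95% called lower. At an unadjusted p under 0.05 there were 4 members (9.3%), against 19.6% of all genes. Groups did not overlap for 15 members (34.9%), among them Myh2, Mb, Casq2 and Ldb3, against 39.8% of all genes. Myh4 had the lowest estimate, -3.06 ± 2.0 (SE, limma adjusted p = 0.447), with 2.93 ± 2.20 (SD, n = 3) in casein and -0.13 ± 2.07 (SD, n = 2) in casein plus E2.

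The size of this difference rested on single pools. Without casein pool 2 the median over members was -0.52 and the fast median -1.12, and 40 of 43 members stayed below 0. Without casein pool 3, the casein pool poorest in muscle transcripts, the median was -1.52. The call of Casq2 was lost without casein pool 1, 2 or 3, casein plus E2 pool 1, soy pool 2 or 3, or soy plus E2 pool 2 (limma adjusted p = 0.0825, 0.0947, 0.0674, 0.208, 0.0584, 0.0504 and 0.0531, in that order), while its estimate stayed between -0.98 and -0.84 in these fits. The fit without casein plus E2 pool 1 has 1 sample left in that group, so the group's spread was taken from the remaining ones.

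In soy-fed rats all 43 members again had an estimate below 0 with E2, with a median of -0.83 (all genes -0.0025), -1.66 over fast and -0.24 over slow genes. No member was called by limma, and 1, Ldb3 at -0.68 ± 0.18 (SE, n = 3 against 3; limma adjusted p = 0.113), had an unadjusted p under 0.05. Of all genes 0.218% were called, 0.0352% as lower, and 20.6% had an unadjusted p under 0.05 (members 2.33%). Groups did not overlap for 8 members (18.6%), including Ckm, Ryr1 and Ldb3, against 24.6% of all genes. Myh4 was at 0.96 ± 4.01 (SD, n = 3) in soy and -1.90 ± 0.28 (SD, n = 3) in soy plus E2, a difference of -2.87 ± 1.79 (SE, limma adjusted p = 0.403). Without soy pool 2 that difference was -0.58 ± 1.20, the median over members was -0.11, the fast and slow medians were -0.12 and -0.08, and 29 of 43 members stayed below 0. Weighting arrays by their fit to all genes gave soy pool 2 the largest weight of all samples, 3.89. Of the 43 members 22 were then called, all lower, while the count called among all 14217 genes rose from 31 to 2034.

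**Figure D5:**
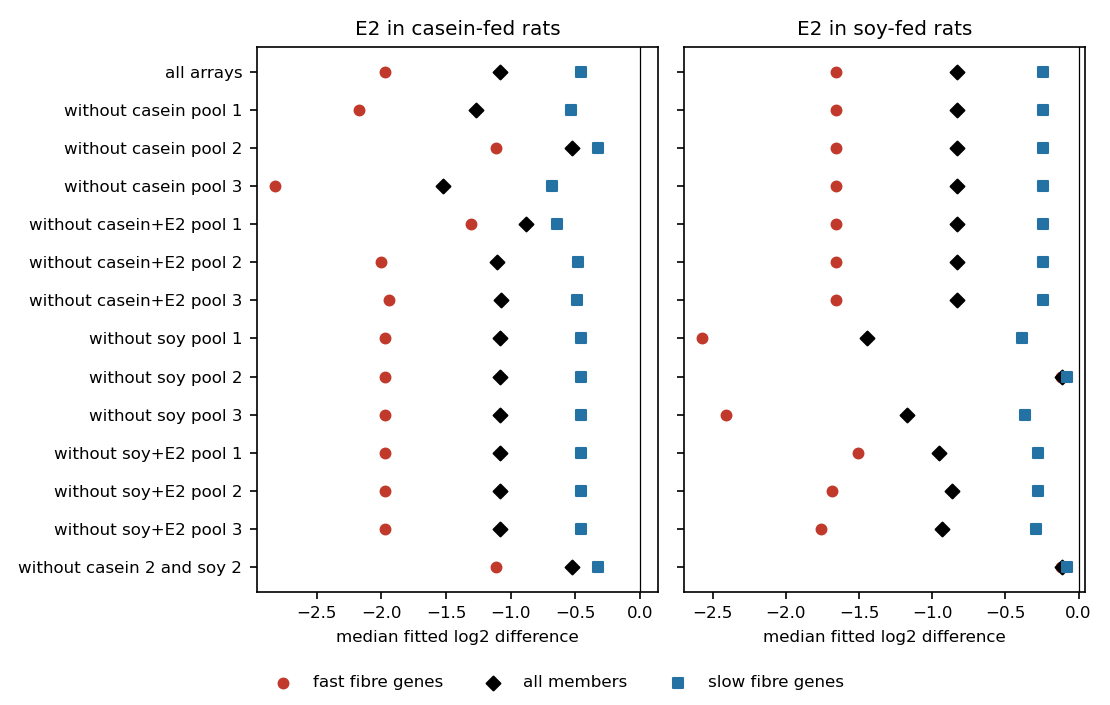
Median fitted log2 difference for E2 (horizontal axis) over fast genes (red circles), all 43 members (black diamonds) and slow genes (blue squares), with all arrays and with each array left out (rows), in casein-fed (left) and soy-fed rats (right). Leaving out casein pool 2 moves the member median from -1.08 to -0.52 in casein-fed rats, and leaving out soy pool 2 moves it from -0.83 to -0.11 in soy-fed rats, where the 3 symbols nearly coincide.

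Averaged over the diets, E2 was associated with a median of -1.04 over the muscle genes (all genes 0.0042), -1.80 over fast and -0.45 over slow genes. Ldb3 fell by 0.75 ± 0.14 (SE, limma adjusted p = 0.0141) and Casq2 by 0.58 ± 0.12 (SE, limma adjusted p = 0.0193), with 5 samples given E2 against 6 without. These are 2 of 43 members, or 4.65%, both lower. Of all genes 12.2% were called in either direction and 5.51% as lower, so the members' share of lower calls was close to that of all genes. An unadjusted p under 0.05 was reached by 10 members (23.3%), against 29% of all genes. Ldb3 was the only member whose groups did not overlap (2.33% of members, 6.88% of all genes). Ckm, with the estimate -2.65 ± 1.12, had a limma adjusted p = 0.151, and Myh4 with -2.96 ± 1.34 an adjusted p = 0.179 by limma. Without casein pool 2 and soy pool 2 together the median was -0.32, Myh4 was at -1.27 ± 0.69, Ldb3 still passed (-0.60 ± 0.11, limma adjusted p = 0.0498) and Casq2 did not (-0.49 ± 0.13, limma adjusted p = 0.0783). Without casein plus E2 pool 1 neither passed, at limma adjusted p = 0.0579 for Ldb3 and 0.0748 for Casq2, in a fit with 1 sample left in that group, whose own spread is then taken from the remaining groups. Without soy pool 1 Mybpc1, a myosin-binding protein, passed too. With array weights 26 members did, all lower, while the count of all genes called rose from 1741 to 3318.

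The wide spread of muscle genes between pools stood beside these results. The residual SD of Myh4 around the group means was 2.57, the median member's was 1.02, and the median over all genes was 0.162. Ldb3 and Casq2 were called with estimates far smaller than that of Myh4, and Casq2 had a residual SD of 0.209.

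Soy against casein gave no called muscle gene. Without E2 the median over members was -0.41, 42 of 43 estimates were below 0, 0 members had an unadjusted p under 0.05 in limma, and no member's groups were apart, against 13.3% of all genes. No gene of all 14217 was called by limma (0% of genes), and 1472 had an unadjusted p under 0.05 (10.4%). Leaving out soy pool 2 put the median at -1.24, leaving out casein pool 2 turned it to 0.16, and leaving out both put it at -0.58. With array weights it was 0.87, and 1588 of all genes were called, of the members Myh1 alone, as lower. With E2 the median of soy against casein was -0.19, no member was called (0.00703% of all genes were) or had an unadjusted p under 0.05 (5.1% of all genes did), and 8 members had soy pools below and 2 above all casein pools (23.3% of members, 23.3% of all genes). These included Myh4, Casq1 and Trdn as lower, and Tnnc1 and Cacna1s as higher.

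For the interaction of diet and E2 the median over members was 0.25, with 0 of 43 and 0% of all genes called by limma. At an unadjusted p under 0.05 there was 1 member (2.33%, against 6.53% of all genes), Casq2, with 0.67 ± 0.24 (SE, limma adjusted p = 0.669), that is a smaller decrease with E2 in soy-fed rats. The median over members was -0.32 without casein pool 2 and 0.90 without soy pool 2.

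A second list of skeletal muscle genes showed the same pools at lower amplitude. Of its 45 measured genes (50 listed) 32 had casein pool 2 and soy pool 2 as their 2 highest arrays, and the medians there were 0.69 and 0.46. For E2 averaged over the diets 41 of the 45 estimates were below 0, with a median of -0.24, and limma called 3 lower and 1 higher, or 8.89% of the list, against 12.2% of all genes called in either direction and 5.51% called lower. Sgca, a sarcolemmal sarcoglycan, fell by 1.01 ± 0.25 (limma adjusted p = 0.0340), Mustn1 fell by 0.59 ± 0.14 (limma adjusted p = 0.0263), and Synpo2l, a Z-disc protein, by 0.40 ± 0.11 (limma adjusted p = 0.0482). Fbxo32, the ubiquitin ligase atrogin-1 of muscle wasting, which other tissues also express, rose by 0.80 ± 0.16 (limma adjusted p = 0.0183). These called genes did not all follow the muscle pools. In casein pool 2 and soy pool 2 Sgca read 1.04 and 0.01, Mustn1 0.66 and 0.22, Synpo2l 0.42 and 0.50, and Fbxo32 -0.45 and -0.59. Sgca was at 0.76 in soy pool 1 and Mustn1 at 0.76 in casein pool 3. In casein-fed rats Mustn1 was the called gene of this list, lower by 1.04 ± 0.20 (SE, limma adjusted p = 0.0380). That is 2.22% of the list, against 2.43% of all genes called in either direction and 0.95% called lower. In soy-fed rats none was called by limma (0.218% of all genes were).

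Other genes followed the muscle pattern closely. Measured by the root mean square difference from the member median over the 11 samples, the nearest gene outside the list was Sh3bgr at 0.21, then Dhrs7c at 0.23, Klhl41 at 0.27, Ankrd23 at 0.29 and Rpl3l at 0.30. Tcap, Cmya5, Srl, Mypn, Cox8b, Myom2, Hrc, Apobec2, Trim54 and Hhatl came next, from 0.31 to 0.47. Sh3bgr read 2.52 in casein pool 2 and 2.16 in soy pool 2, and Myom2, a protein of the M-band, 2.92 and 3.02. Of the 59 genes above 1 in both pools, 32 were members, 10 were on the second muscle list and 17 on neither. Highest of those 17 was Myl11, with 2.33, 5.12 and 0.48 in the casein pools, -1.87, 1.22 and 1.23 with casein and E2, -2.81, 5.20 and -0.48 with soy and -2.27, -2.51 and -1.67 with soy and E2, named here after its values were seen. Its 3 highest arrays were those of Myh4, and its E2 estimates were -2.97 in casein-fed and -2.79 in soy-fed rats (limma adjusted p = 0.479 and 0.436).

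Markers of other cell types were read on the same arrays, and Myh6, Myf6, Myod1 and Ucp1 among them are named after their values were seen. The 8 cardiac genes had medians of 0.10 in casein pool 2 and -0.05 in soy pool 2, with 0 genes above 1, and the heart heavy chain Myh6 was at -0.22 and 0.03. Among the cardiac genes Myl4, the atrial light chain, was the only one called for E2 averaged over the diets (12.5% of the list, against 5.51% of all genes called lower). It read 0.84, 0.87 and -0.14 with casein, -1.20, -0.0018 and 0.10 with casein and E2, 0.25, 0.0018 and 0.33 with soy and -0.84, -1.02 and -0.51 with soy and E2, and fell by 1.04 ± 0.26 (SE, limma adjusted p = 0.0320). The casein and casein plus E2 pools overlapped for it, the soy groups did not. The 15 myogenic regulator and satellite cell genes had medians of 0.08 and 0.05, and of these Myf6, the regulator of mature fibres, was at 1.12 and 1.26 while Myod1 was at 0.37 and 0.08. The called gene of that list was Chrna1, a subunit of the acetylcholine receptor, which fell by 0.45 ± 0.11 (SE, limma adjusted p = 0.0355) for E2 averaged over the diets. That is 6.67% of the list, near the 5.51% of all genes called lower. Of the 8 brown fat genes only Cox8b, which muscle also expresses, was above 1 in either pool (2.30 and 2.65), and Ucp1 was at 0.18 and 0.24. The 11 smooth muscle and myoepithelial genes had medians of -0.07 and -0.43, the 5 keratinocyte genes 0.02 and -0.0017, and the 10 liver genes 0.30 and -0.08.

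Other lists set the 2 pools apart. The 9 white adipocyte genes had a median of 0.88 in casein pool 2, where all 9 were among each gene's 2 highest arrays, and 0.02 in soy pool 2. The 5 peripheral nerve genes were at 0.51 and 0.06, the 7 lymphocyte genes at -1.42 and 2.12, and the 8 luminal epithelial genes at -1.01 and -0.70. Casein pool 2 and soy pool 2 thus both had high muscle and low luminal epithelial transcripts, while soy pool 3, with the lowest luminal median (-1.61), had a muscle median of -0.09. With E2 averaged over the diets, limma called 4 of the 5 nerve genes lower, including the myelin genes Mbp at -0.87 ± 0.13 (adjusted p = 0.00861) and Pmp22 at -0.69 ± 0.15. Of the 9 adipocyte genes 7 were called lower, among them the β3-adrenergic receptor Adrb3 at -2.12 ± 0.37 and the adipokine Adipoq at -1.50 ± 0.29. Higher were 5 of the 8 luminal genes, among them Elf5 at 1.98 ± 0.34 and Cd24 at 1.88 ± 0.30, and the basal keratins Krt14 (1.08 ± 0.21) and Krt5 (0.99 ± 0.28) of the 11 smooth muscle and myoepithelial genes. The shares called lower were 80% of the nerve and 77.8% of the adipocyte genes, against 5.51% of all genes. Called higher were 62.5% of the luminal and 18.2% of the smooth muscle and myoepithelial genes, against 957 of all 14217 genes. The part of these shifts in the muscle results was not tested.

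The labels disagree on the tissue, since each sample's description speaks of hepatic expression and its source of mammary gland. With centred values the presence of mammary markers could not be checked as a level. The liver list was at 6.34 in casein pool 3 and at most at 0.30 elsewhere, and casein pool 3 had a muscle median of 0.15.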

How the data were processed

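Labelled RNA made from 8 µg of total RNA was hybridised to Affymetrix arrays, per the labels' protocols. The deposited table gave log2 values, a scale read from their range, for 31099 probe sets on 12 arrays. Every fold change rests on that reading. The submitters' processing notes name GCOS without a version. How signals were summarised and normalized, and the base of the logarithm, is not given in the sources used here. Each row was centred by the authors before deposit (largest row median 5e-07), so no filter on level or background was possible.

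Of the probe sets 20826 had 1 gene in the platform annotation, 436 several and 9780 none, besides 57 controls. Gene identifiers tied 20758 of them to the GRCr8 gene table, and 0 symbols differed. Probe sets of a gene were averaged, and those with several genes were left out. Sample titles gave the group and the pool number. Group means of all 14217 genes were estimated from 11 samples, leaving 7 residual degrees of freedom, with limma 3.58.1 (R 4.3.3; eBayes without a trend). There were 6 two-sided contrasts, and calls were made where the p adjusted by Benjamini-Hochberg was under 0.05. The code was tested on simulated data. The muscle genes, their classes and all gene lists were chosen with earlier results of these data known. Members named in full followed a fixed list plus called members and those of widest and narrowest range. Of other genes, the 15 nearest the member median and up to 4 called genes of each marker list could be named. Alternatives were quantile normalization, median centring, the most variable probe set, only the groups compared, pool number as a block, array weights, 12 separate arrays and leaving out arrays, and, chosen after seeing the data, group medians in place of means.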

Additional observations from a re-analysis of the deposited data

How the results depend on the processing

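The median difference of the muscle genes for E2 stayed below 0 in both diets under every alternative run, and its size depended on which pools were included. Leaving out 1 array at a time, it lay between -1.52 and -0.52 in casein-fed rats, between -1.44 and -0.11 in soy-fed rats and between -1.26 and -0.63 for the average. It lay between -1.24 and 0.16 for soy without E2, between -0.39 and -0.14 for soy with E2 and between -0.32 and 0.90 for the interaction. Fast minus slow medians lay between -2.14 and -0.66, between -2.19 and -0.04 and between -1.79 and -0.79 for E2 in casein, in soy and averaged. Counts of called members then ran from 0 to 1 for E2 in casein-fed rats and from 0 to 3 for the average, and were 0 for the others.

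For E2 in casein-fed rats 2 members were called with quantile normalization and with 12 separate arrays (Casq2 and Ldb3 in both), 3 with array weights, and 0 without casein pool 2 and soy pool 2 together, where the average had 1. Of all genes, 628, 1369, 1408 and 10 were called for E2 in casein-fed rats in these settings, in that order, against 346 in the fit used above. Array weights gave 22 called members for E2 in soy-fed rats, 26 for the average and 1 for soy without E2, where 2034, 3318 and 1588 of all genes were called. They gave a fast minus slow difference of -3.32 for E2 in soy-fed rats, and medians of 0.87 for soy without E2 and -1.10 for the interaction. Soy pool 2 had a weight of 3.89 and soy pool 1 of 0.31. With the most variable probe set the median over members in soy pool 2 was 3.09. With group medians, which give a high pool no extra weight, the E2 medians were -0.80 in casein-fed and -0.17 in soy-fed rats.

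Deviations of pools with the same number correlated between -0.42 and 0.46 (18 pairs, median 0.03). For pools with different numbers the range was -0.41 to 0.43 (36 pairs, median 0.02). Of the 12 arrays 2 correlated best with their own number. Casein pool 2 and soy pool 2, the arrays highest in muscle transcripts, carry the same number. Whether pools of the same number were handled together was not tested. With pool number as a block 0 members were called for E2 in casein-fed rats, 2 for the average, and all genes called fell from 346 to 13, from 31 to 13 and from 1741 to 749 for E2 in casein, in soy and averaged. A fit of only the groups compared was not made for the average and the interaction, which use all groups. Centred values give no signal over background, so what dim probe sets limit could not be read.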
